A study of Homo sapiens with 8 samples.

Results

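The p53 target genes MDM2, CDKN1A, BBC3, ZMAT3, SESN1, TP53INP1, BTG2, RRM2B and FDXR were followed in LNCaP, an established human prostate carcinoma line that is commonly described as p53-intact. The 9 genes were picked by name as textbook p53 targets, with earlier results of these data known. Each had 1 row among the 36474 genes counted, and each passed the low-count filter that left 21071 genes for testing. LNCaP cells were kept in medium lacking serum and calcium and then exposed to recombinant asporin (ASPN, a protein secreted by stromal cells) at 100 ng/mL. RNA was taken at 0 h (2 libraries, also titled ASPN-treated), 12 h (3 libraries) and 24 h (3 libraries). All groups share the starvation, and no buffer-treated 12 h or 24 h libraries were analysed here, so exposure to ASPN and time in the medium cannot be told apart. The labels call the libraries biological replicates and name no batch. Per the study's methods the cells were plated in wells, and whether the replicates come from separate experiments is not stated. The p-values therefore measure the spread between these libraries. The counts show transcript abundance and cannot show the amount, activity or sequence of p53 protein.

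p53 is a transcription factor that is held at a low level by the ubiquitin ligase MDM2 and is released from it under DNA damage and other stress. It then binds paired half-sites in DNA near its target genes and raises their transcription. The targets include its own inhibitor MDM2, the cell cycle inhibitor CDKN1A (p21), mediators of cell death such as BBC3 (PUMA), and genes of DNA supply and redox control. Because MDM2 is both target and inhibitor, its transcript is a usual readout of p53 output, together with CDKN1A.

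The sequences that p53 reads were looked up first. The p53 response element consensus, taken as 2 adjacent half-sites of 10 bases without a spacer, was searched on both strands within 3000 bases of each gene's 5′ end in hg38, with the central C and G of each half-site required. A match with at most 2 mismatches was present for 5 of the 9 genes (55.6%), against 658 of 14234 tested protein-coding genes (4.62%). It was also present for 20 of 46 other p53 targets (43.5%), a list described below, so it is not particular to the 9 genes. The matches of MDM2, CDKN1A and ZMAT3 are shown 5′ to 3′ on the strand of the gene with the 20-base match in capitals, so that the element can be compared among the genes whose transcripts are described below.
MDM2: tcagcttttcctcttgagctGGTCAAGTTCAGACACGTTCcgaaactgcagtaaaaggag
CDKN1A: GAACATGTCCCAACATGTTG
ZMAT3: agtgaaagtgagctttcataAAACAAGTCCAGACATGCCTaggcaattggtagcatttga
The MDM2 match lay at chr12:68808923-68808942 on the plus strand, in an intron, with 2 mismatches. The CDKN1A match, at chr6:36676449-36676468 on the plus strand with 2 mismatches, spans the annotated 5′ end of the gene, so its flanks are not shown. The ZMAT3 match at chr3:179070188-179070207 on the minus strand was intronic and had no mismatch, which held for 0.0703% of the protein-coding genes. The first intron of MDM2 and the region upstream of the main CDKN1A promoter are textbook places of p53 binding. These matches describe the DNA letters alone, binding was not measured, and genes without a match may hold elements farther away or with a spacer.

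The 9 transcripts were abundant enough to be measured closely. Library totals ran from 73406825 to 96962135 counts, and the lowest count of any of the 9 genes in a library was that of BBC3 in 24 h replicate 3, at 1024. Levels are given as CPM, counts relative to the TMM-scaled library total. The sum of a set of 10 luminal prostate markers was 4910 to 5010 CPM at 0 h, 5440 to 5480 CPM at 12 h and 5420 to 5590 CPM at 24 h, so the cells carried the markers of their label. The sum was higher after 0 h. At 12 h, 6 of the 10 markers were higher and 0 lower by edgeR, where 4.85% of all tested genes rose and 6.75% fell. At an unadjusted p of at most 0.05, 7 were higher and 0 lower, and DESeq2 called 6 and 0. At 24 h, 7 were higher and 2 lower by edgeR, beside 7.82% and 8.49% of all tested genes. KLK3, the marker with the largest rise at 12 h, went from 965 to 1356 CPM on average. The sum of the 10 of 12 stromal and blood cell markers with a row was 22.2 to 22.8 CPM, 21.7 to 23.9 CPM and 21.4 to 22 CPM, and 5 of these markers averaged at most 3 counts. COL1A1 made up most of this sum, with averages of 19.46, 20.34 and 19.07 CPM. LUM was next, at 1.581, 1.294 and 1.195 CPM. On the first principal component the 0 h libraries stood at -20.2 and -13.6. There they lay farther from each other than the libraries within either later group, which covered 0.97 to 4.35 and 7.43 to 10.9. On the second component the 12 h libraries spread most, from -13.9 for replicate 1 to -1.71, where the 0 h libraries stood at 4.58 and -1.15. The part of the luminal markers and of the spread at 0 h and 12 h in the results was not tested, beyond leaving out each library.

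Most of the p53 target transcripts were lower after 12 h and 24 h with ASPN than at 0 h. At 12 h, 7 of the 9 genes fell at an adjusted p of at most 0.05 (edgeR quasi-likelihood F test, adjusted over all tested genes) and 0 rose, where 6.75% of all tested genes fell and 4.85% rose. At 24 h the same 7 genes, CDKN1A, MDM2, ZMAT3, BBC3, RRM2B, BTG2 and FDXR, were lower and 0 were higher, beside 8.49% and 7.82% of all tested genes. At an unadjusted p of at most 0.05, 9 and 7 of the 9 genes were lower and 0 higher in either comparison, and DESeq2 also called 7 lower and 0 higher in both. SESN1 and TP53INP1 did not pass in either comparison. The median log2 fold change of the 9 genes was -0.36 at 12 h and -0.43 at 24 h, while that of all tested genes was -0.00069 and -0.0031. Both comparisons use the same 0 h libraries, so they are not independent of each other. The 9 genes were chosen with earlier results of these data known. The shares of all tested genes are therefore a background and not a test of the list. In bulk samples, a lower level in every cell and a smaller share of cells with the transcript cannot be told apart.

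**Figure D1:**
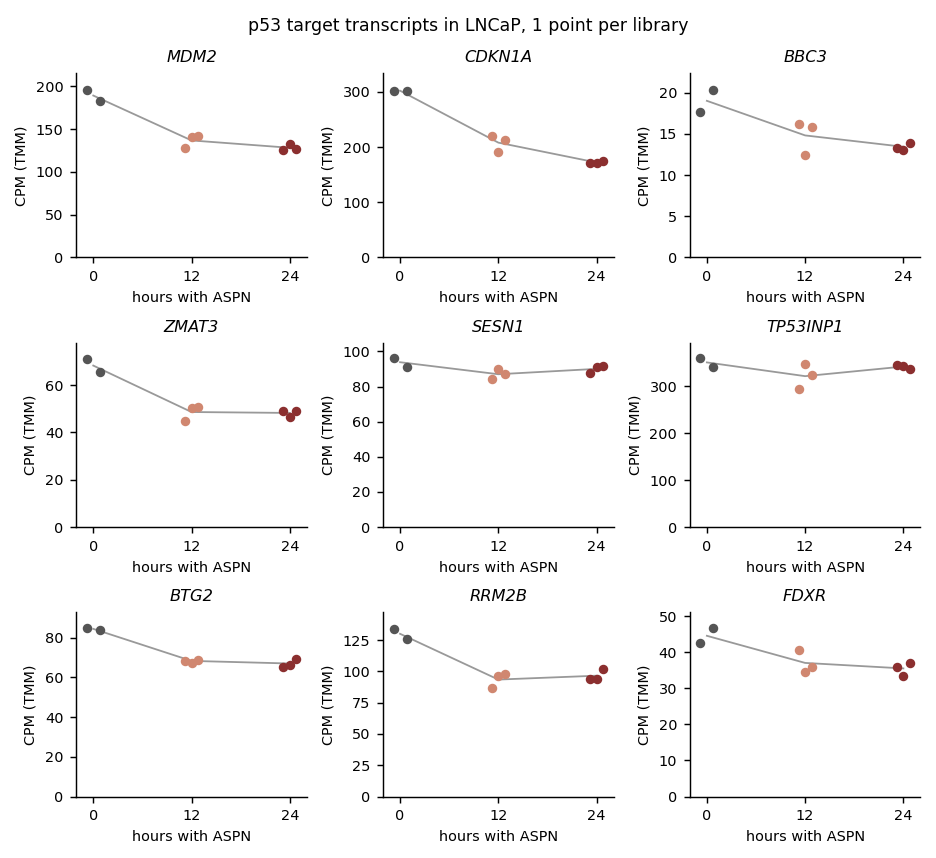
Level of each p53 target transcript in CPM (vertical axes, starting at 0) against hours with ASPN, with 1 point per library and a grey line through the group means. CDKN1A falls from 302 CPM at 0 h to 172 CPM at 24 h on average, while the SESN1 and TP53INP1 points stay near their 0 h levels.

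CDKN1A (ENSG00000124762.14, GRCh38 chromosome 6, 36676460 to 36687337), which encodes the cyclin-dependent kinase inhibitor p21, showed the largest decrease of the 9. Its level was 302 and 302 CPM in the 0 h libraries, 220.2, 191 and 213 CPM in the 12 h libraries, and 171, 170.5 and 175 CPM in the 24 h libraries. The 3 groups did not overlap, and the levels stepped down at each time. CDKN1A fell by 31.1% at 12 h (log2 fold change -0.54, SE 0.05, adjusted p 1.06e-08 by edgeR) and by 43.0% at 24 h (log2 fold change -0.81, SE 0.05, adjusted p 1.85e-13 by edgeR). It was the only one of the 9 genes to reach the study's call of a 1.5-fold change with an adjusted p of at most 0.05, at 24 h, a call made for 2.45% of all tested genes in that comparison and for 1.05% at 12 h. Of all tested genes, 4.17% had a lower log2 fold change than CDKN1A at 24 h.

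MDM2 (ENSG00000135679.26, chromosome 12, 68808177 to 68845544), the ligase that marks p53 for degradation, was at 196 and 183 CPM at 0 h. It was at 128, 141 and 142 CPM at 12 h and at 125, 133 and 127 CPM at 24 h. Every later library lay below both 0 h libraries, whereas the 12 h and 24 h libraries overlapped. The decrease was 27.7% at 12 h (log2 fold change -0.47, SE 0.05, adjusted p 1.12e-07 by edgeR) and 32.3% at 24 h (log2 fold change -0.56, SE 0.05, adjusted p 5.51e-10 by edgeR).

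BBC3 (ENSG00000105327.18, chromosome 19, 47220822 to 47232766), a BH3-only protein that promotes mitochondrial apoptosis, had the lowest CPM of the 9 genes. It was at 17.7 and 20.3 CPM at 0 h, at 16.2, 12.5 and 15.8 CPM at 12 h, and at 13.3, 13.1 and 13.9 CPM at 24 h. Every later library lay below both 0 h libraries. BBC3 fell by 22.1% at 12 h (log2 fold change -0.36, SE 0.09, adjusted p 0.00614 by edgeR) and by 29.3% at 24 h (log2 fold change -0.50, SE 0.09, adjusted p 9.84e-05 by edgeR).

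ZMAT3 (ENSG00000172667.11, chromosome 3, 178960121 to 179072215), a zinc finger protein that binds RNA, was at 70.8 and 65.6 CPM at 0 h. The 12 h libraries held 45.0, 50.2 and 50.7 CPM and the 24 h libraries 49.2, 46.6 and 48.9 CPM. The later groups lay below 0 h and on top of each other. The log2 fold change was -0.49 at 12 h (SE 0.06, adjusted p 4.61e-07 by edgeR) and -0.50 at 24 h (SE 0.06, adjusted p 6.97e-08 by edgeR).

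RRM2B (ENSG00000048392.12, chromosome 8, 102204502 to 102238961), the p53-inducible small subunit of ribonucleotide reductase that supplies deoxynucleotides, was at 134 and 126 CPM at 0 h. It was at 86.4, 96.0 and 98.1 CPM at 12 h and at 94.2, 93.9 and 102 CPM at 24 h. Like ZMAT3, it was lower in all 6 later libraries, with no step between 12 h and 24 h. Its log2 fold change was -0.48 at 12 h (SE 0.05, adjusted p 2.39e-07 by edgeR) and -0.43 at 24 h (SE 0.05, adjusted p 3.42e-07 by edgeR).

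BTG2 (ENSG00000159388.6, chromosome 1, 203305491 to 203309602), an antiproliferative factor that acts on mRNA deadenylation, varied little within groups. It was at 84.9 and 83.9 CPM at 0 h, at 68.4, 67.4 and 68.9 CPM at 12 h, and at 65.1, 66.3 and 69.4 CPM at 24 h. The decrease was 19.1% at 12 h (log2 fold change -0.31, SE 0.05, adjusted p 4.25e-05 by edgeR) and 20.7% at 24 h (log2 fold change -0.33, SE 0.05, adjusted p 4.96e-06 by edgeR).

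FDXR (ENSG00000161513.12, chromosome 17, 74862497 to 74873031), the mitochondrial ferredoxin reductase, was at 42.5 and 46.6 CPM at 0 h. It was at 40.7, 34.4 and 36.0 CPM at 12 h and at 36.0, 33.4 and 37.1 CPM at 24 h. It had the smallest decrease of the 7 genes past the threshold in both comparisons with 0 h. The log2 fold change was -0.27 at 12 h (SE 0.07, adjusted p 0.00603 by edgeR) and -0.33 at 24 h (SE 0.07, adjusted p 0.000458 by edgeR).

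The other two genes moved less. SESN1 (ENSG00000080546.13, chromosome 6, 108986437 to 109094819), a sestrin that restrains mTORC1 signalling, was at 96.6 and 91.2 CPM at 0 h, at 84.1, 90.01 and 87.0 CPM at 12 h, and at 87.7, 91.0 and 91.6 CPM at 24 h. Its 12 h libraries lay below the 0 h libraries, but the log2 fold change of -0.11 (95% interval -0.21 to -0.01) had an adjusted p of 0.159 by edgeR. At 24 h the groups overlapped and the log2 fold change was -0.06 (95% interval -0.16 to 0.04, adjusted p 0.478 by edgeR).
TP53INP1 (ENSG00000164938.14, chromosome 8, 94925972 to 94949378), a nuclear and autophagy protein that supports p53 activity, was at 360.4 and 341 CPM at 0 h, at 295, 347 and 324 CPM at 12 h, and at 346, 344 and 337 CPM at 24 h. The groups overlapped at both times. The log2 fold change was -0.13 at 12 h (95% interval -0.23 to -0.02, adjusted p 0.108 by edgeR) and -0.04 at 24 h (95% interval -0.14 to 0.07, adjusted p 0.712 by edgeR). These 24 h intervals do not reach the changes measured for CDKN1A, MDM2 or ZMAT3. A test of the difference between genes was not made.

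**Figure D2:**
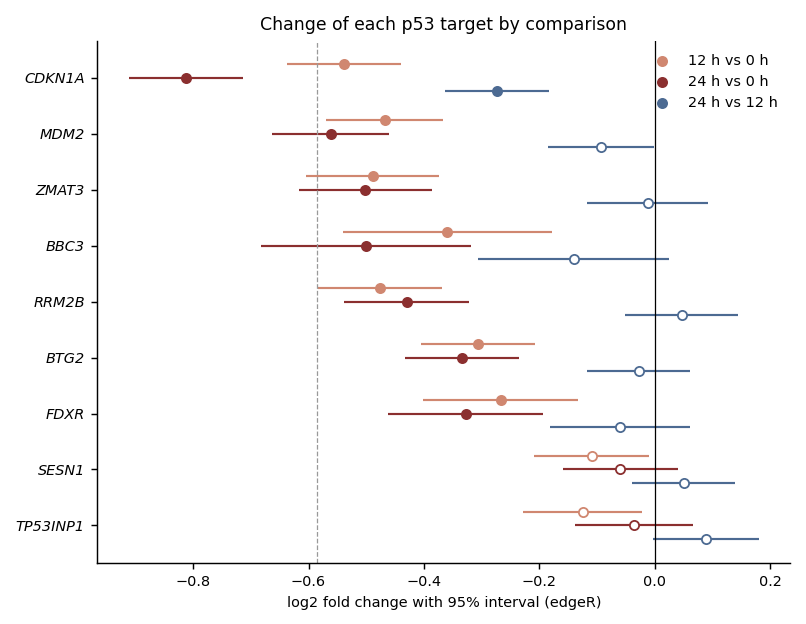
Log2 fold change (horizontal axis) of each p53 target for 12 h against 0 h, 24 h against 0 h and 24 h against 12 h, with 95% intervals from edgeR as lines, filled points at an adjusted p of at most 0.05, open points otherwise, and a dashed line at a 1.5-fold decrease. The 24 h point of CDKN1A at -0.81 lies past the dashed line, and the 24 h to 12 h points of the other 8 genes are open.

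Counted by library, the 0 h and 12 h groups did not overlap for 8 of the 9 genes, all lower at 12 h, where 19.6% of all tested genes were lower without overlap. Between 0 h and 24 h this held for 7 of the 9 genes, against 21.7% of all tested genes. The sum of the 9 transcripts was 1260 to 1310 CPM at 0 h, 983 to 1040 CPM at 12 h and 987 to 1000 CPM at 24 h. The calls for the less deeply counted genes rested on the 0 h libraries: without the unnumbered 0 h library, 5 of the 9 genes passed at 12 h, as BBC3 and FDXR had adjusted p-values of 0.154 and 0.131 by edgeR. Without 0 h replicate 1, 7 of the 9 still passed at 12 h while the number of all tested genes that fell went from 1422 to 378.

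Between 12 h and 24 h, CDKN1A was the only one of the 9 genes with a further change. It fell by 17.3% (log2 fold change -0.27, SE 0.04, adjusted p 0.000302 by edgeR), and its libraries were the only ones of the 9 that did not overlap, against 9.33% of all tested genes that were lower without overlap. In this comparison 1.61% of all tested genes fell, 1.12% rose, and 0.18% also changed by 1.5-fold. MDM2 had a log2 fold change of -0.09 (95% interval -0.19 to -0.00196, adjusted p 0.353 by edgeR), and passed, with an adjusted p of 0.0445, when 12 h replicate 1 was left out. The remaining 7 genes had log2 fold changes from -0.14 for BBC3 to 0.09 for TP53INP1. The median over the 9 genes was -0.03.

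Levels of different genes were compared per kilobase of annotated exon. At 0 h, CDKN1A was highest at 101 ± 0.184 CPM per kb (SD, n = 2), followed by TP53INP1 at 62.2 ± 2.39 and BTG2 at 30.6 ± 0.245 CPM per kb. RRM2B at 24.1 ± 1.02 and MDM2 at 22.8 ± 1.12 CPM per kb came next, and their libraries overlapped. SESN1 at 12.9 ± 0.522 overlapped FDXR at 12.4 ± 0.811, and ZMAT3 at 6.04 ± 0.324 overlapped BBC3 at 5.97 ± 0.575 CPM per kb. By 24 h the order at the top had turned. TP53INP1 was at 59.7 to 61.2 CPM per kb in the 3 libraries and CDKN1A at 56.9 to 58.4 CPM per kb. RRM2B, at 17.4 to 18.9 CPM per kb, then also lay above MDM2, at 15.1 to 16.0 CPM per kb. The lengths join all annotated exons of a gene, so these orders hold for that length and not for the isoforms in use.

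**Figure D3:**
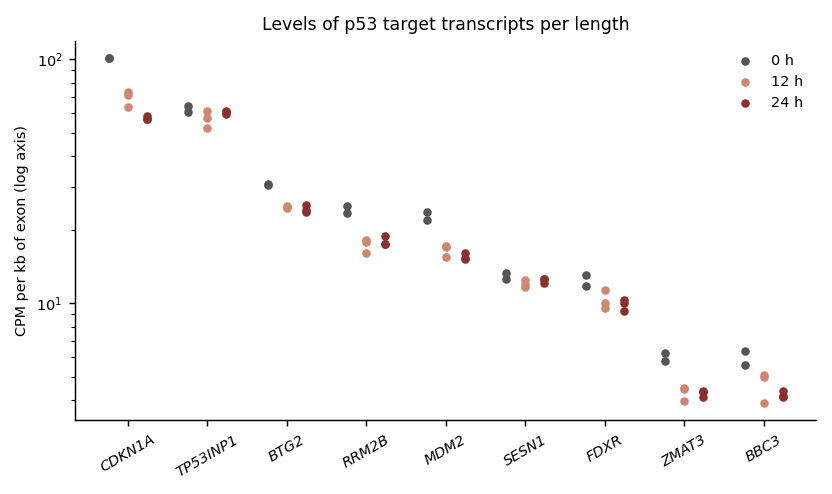
Level of each p53 target per kilobase of exon (vertical log axis, CPM per kb) in every library, coloured by time and ordered by 0 h replicate 1. CDKN1A starts above TP53INP1 at 0 h and lies just below it at 24 h.

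The 9 transcripts were then compared with each other and with all other genes over the 8 libraries. The Pearson correlation of log2 CPM was 0.98 for ZMAT3 with RRM2B, 0.97 for MDM2 with ZMAT3 and 0.955 for MDM2 with BTG2, the 3 highest pairs, and the lowest pair was BBC3 with TP53INP1 at -0.11. Among 12666 other genes, the patterns most like that of CDKN1A were those of TULP3 (r = 0.9979), SESN2 (r = 0.9947) and HDLBP (r = 0.9924), and those most like MDM2 were BPNT1 (r = 0.9973), RAB1A (r = 0.992) and CUTALP (r = 0.9919). These values describe 8 libraries in 3 time groups, and any gene that follows the same time steps correlates in this way.

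A wider list of 46 other p53 targets, also chosen with earlier results of these data known, was lower more often than higher. All 46 were tested. At 12 h, 19 fell, 1 rose and 26 did not pass, with a median log2 fold change of -0.19, where 6.75% of all tested genes fell and 4.85% rose. At 24 h, 22 fell, 3 rose and 21 did not pass, with a median of -0.22, beside 8.49% and 7.82% of all tested genes. Between 12 h and 24 h, 3 fell, 1 rose and 42 did not pass, with a median of -0.03, beside 1.61% and 1.12% of all tested genes.

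GADD45A, a stress sensor that binds PCNA and p21, fell at both times. It was at 39.6 and 34.6 CPM at 0 h, at 26.04, 21.5 and 23.9 CPM at 12 h, and at 19, 20.9 and 20.6 CPM at 24 h, with log2 fold changes from 0 h of -0.64 (adjusted p 3.51e-07) and -0.88 (adjusted p 1.95e-10 by edgeR). SESN2, a sestrin related to SESN1 and also induced by ATF4, was at 138 and 134 CPM at 0 h and at 78.5, 83.9 and 80.5 CPM at 24 h. Its log2 fold change at 24 h was -0.75 (adjusted p 4.18e-12 by edgeR), where the related SESN1 had -0.06. SESN2 and GADD45A fell again between 12 h and 24 h, by 0.27 (adjusted p 0.000906) and 0.24 (adjusted p 0.0465 by edgeR) on the log2 scale, and so did GDF15, a secreted stress cytokine, by 0.20 (adjusted p 0.0175 by edgeR). The GADD45A step was lost when any library of these times but 12 h replicate 2 was left out, and the GDF15 step when 12 h replicate 3, 24 h replicate 1 or 2, or the unnumbered 0 h library was.

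Of the death receptors, FAS was at 7.52 and 7.85 CPM at 0 h and at 5.28, 4.52 and 4.51 CPM at 24 h, with log2 fold changes of -0.53 at 12 h (adjusted p 0.0012) and -0.69 at 24 h (adjusted p 2.2e-05 by edgeR). The 12 h call was lost in a fit with the replicate number as a block (-0.42, adjusted p 0.0631 by edgeR). EDA2R, a receptor of the same superfamily, had 12 and 11 counts at 0 h, 0, 0 and 2 at 12 h, and 0, 0 and 1 at 24 h. It passed the low-count filter only through its 0 h counts, so a lower level later was favoured in advance. Its calls, counted among the 19 and 22 other targets that fell, and its ratios are therefore a description alone. Its ratio to 0 h was 0.0551 at 12 h (95% interval 0.0063 to 0.223, counting error only) and 0.0268 at 24 h (0.00065 to 0.165), and its edgeR adjusted p of 0.035 and 0.0139 became 0.131 and 0.0534 without the low-count filter and were also lost without the unnumbered 0 h library (0.172 and 0.104 by edgeR) and without replicate 1 or 2 of the later group. SPATA18, a factor of mitochondrial quality control, had a log2 fold change of -0.65 at 12 h (adjusted p 1.59e-06 by edgeR). Some genes were then picked by role after their values were seen. The death receptor TNFRSF10B, the apoptotic effectors PMAIP1 and BAX, the repair gene XPC and the p53 phosphatase PPM1D also fell at 24 h. Their log2 fold changes were -0.42, -0.48, -0.33, -0.28 and -0.26. The apoptosis genes APAF1, PERP, PIDD1 and TP53I3 of the same list did not pass at 24 h, at -0.12, -0.04, 0.0043 and -0.25.

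PLK2, a polo-like kinase, went the other way. It was at 25.3 and 24.8 CPM at 0 h, at 27.7, 28.2 and 30.4 CPM at 12 h, and at 36.0, 34.4 and 37.5 CPM at 24 h, with log2 fold changes of 0.20 at 12 h (adjusted p 0.0334) and 0.52 at 24 h (adjusted p 2.44e-07 by edgeR). The 12 h call was lost when either 0 h library, 12 h replicate 3 or 24 h replicate 1 was left out. It was also lost in a fit of the compared time points alone (adjusted p 0.0794 by edgeR). The 24 h call was kept in each of these. CD82, a tetraspanin, and SUSD6 rose at 24 h with log2 fold changes of 0.24 (adjusted p 0.041) and 0.15 (adjusted p 0.0479 by edgeR). Leaving out any of the 24 h libraries, or 0 h replicate 1, ended both calls, as did the unnumbered 0 h library for CD82 and 12 h replicate 3 for SUSD6. CD82 also did not pass without the low-count filter (adjusted p 0.0569 by edgeR).

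**Figure D4:**
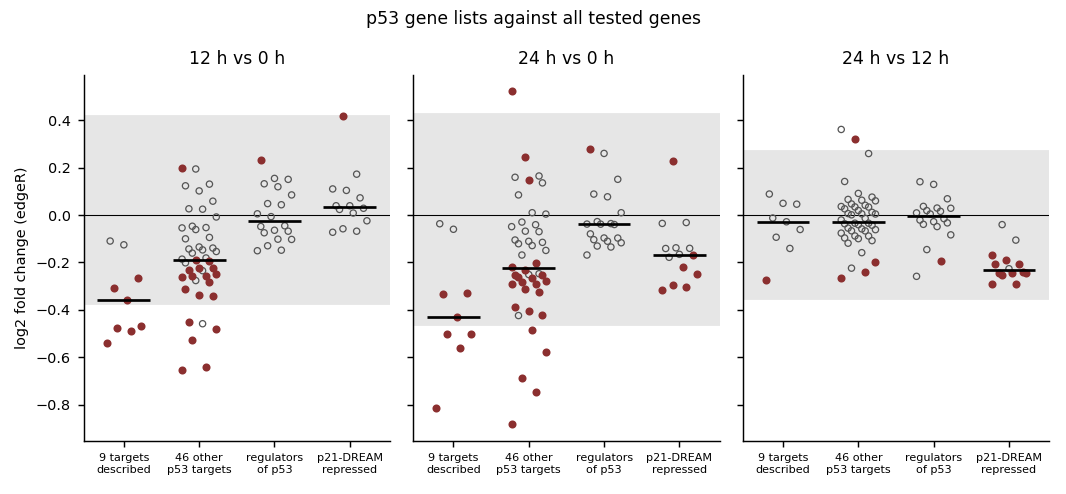
Log2 fold change (vertical axis) of the 9 p53 targets, 46 other p53 targets, 20 tested regulators of p53, and 14 genes repressed through p21 and DREAM in 3 comparisons, with filled points at an adjusted p of at most 0.05, black bars at list medians and a grey band from the 10th to the 90th percentile of all tested genes. EDA2R is not drawn in any panel but is included in the medians, and the DREAM list is the one whose median is lowest between 24 h and 12 h, at -0.23.

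The transcripts of p53 regulators were compared in the same way. MDM4, the relative of MDM2 that inhibits p53, had log2 fold changes of -0.05 (adjusted p 0.715) and -0.04 (adjusted p 0.763 by edgeR). Of 20 tested genes on this list, 19 did not pass in each comparison. With 6.75% of all tested genes lower and 4.85% higher at 12 h, 8.49% and 7.82% at 24 h, and 1.61% and 1.12% between 12 h and 24 h, these counts do not set the list apart from other genes. The exceptions were the checkpoint kinases CHEK2 at 12 h (log2 fold change 0.23, adjusted p 0.039 by edgeR) and CHEK1 at 24 h (0.28, adjusted p 0.00424), and the acetyltransferase EP300 between 12 h and 24 h (-0.20, adjusted p 0.0147). The CHEK2 call was lost when 0 h replicate 1, any 12 h library or 24 h replicate 1 was left out. It was also lost with the compared time points alone (adjusted p 0.0716 by edgeR). The CHEK1 call was lost without the unnumbered 0 h library, and the EP300 call without 12 h replicate 3 or 24 h replicate 2 or 3.

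The p21 protein, by keeping RB-family proteins active, lets the DREAM complex repress cell cycle genes, and 14 such genes were listed. At 12 h 0 of them fell, as also at an unadjusted p of at most 0.05 and by DESeq2, and 1 rose by edgeR and 2 by DESeq2, where 6.75% of all tested genes fell and 4.85% rose by edgeR. The S-phase regulator MYBL2 rose from 43.2 and 52.6 CPM at 0 h to 64.2, 63.7 and 64.1 CPM at 12 h (log2 fold change 0.42, adjusted p 1.2e-05 by edgeR). At 24 h, MYBL2 was higher than at 0 h (0.23, adjusted p 0.00725), a call lost without 0 h replicate 1, and 6 genes were lower, beside 7.82% and 8.49% of all tested genes. They were led by the mitotic kinase AURKA (-0.32, adjusted p 0.000411), cyclin gene CCNB2 (-0.30, adjusted p 0.000101), the phosphatase CDC25C (-0.29, adjusted p 0.0101) and the kinase PLK1 (-0.25, adjusted p 0.00725 by edgeR). Without the unnumbered 0 h library PLK1 was at -0.12 (adjusted p 0.317 by edgeR), and its call was also lost without 24 h replicate 1 (0.0531) or 2 (0.0525). CDC25C lost its call without 0 h replicate 1 (adjusted p 0.104 by edgeR). Both calls were lost in a fit with the replicate number as a block (adjusted p 0.0644 and 0.12 by edgeR). Between 12 h and 24 h, 11 of the 14 fell and 0 rose by edgeR, at an unadjusted p of at most 0.05 12 were lower and 0 higher, and DESeq2 called 11 lower and 0 higher, while 1.61% of all tested genes fell and 1.12% rose. The median log2 fold change of the list was -0.23. AURKA (-0.29), PLK1 (-0.29), CCNA2 (-0.25) and CCNB2 (-0.25) had the largest decreases, of which those of PLK1 and CCNA2 were lost when 24 h replicate 1 or 2 was left out, and that of CCNA2 also without 12 h replicate 3. CDKN1A fell over the same interval.

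Few exon bases of the 9 genes are shared with other counted genes. Annotated genes without a row in the counts were not considered in these shares. BBC3, ZMAT3, BTG2, RRM2B and FDXR share no exon bases with another counted gene. CDKN1A shares 4.87% of its exon bases with DINOL, MDM2 1.6% with the carboxypeptidase gene of chromosome 12, TP53INP1 3.99% with NDUFAF6 and SESN1 4.99% with a noncoding gene, all on the other strand. MDM2 also matched genes of its own locus that had no counts, over 5.86% and 5.41% of its longest annotated transcript. No transcript of another locus matched, by its longest aligned stretch, 10% or more of the longest annotated transcript of any of the 9 genes at 95% identity.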

How the data were processed

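Total RNA of LNCaP cells was sequenced by the authors as TruSeq mRNA libraries (paired-end reads). Per the study's methods, adapters were trimmed with Cutadapt, reads aligned to GRCh38 with STAR and reads per gene counted with featureCounts. Strand and multi-mapping options of the counting are not given in the sources used here. The deposited values are raw counts per gene, with no normalization. A 0 h library was left out by the authors for quality. The remaining second 0 h column has a number that no 0 h label carries, so it was used as an unnumbered 0 h library.

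Groups follow the times in the labels. Testing used edgeR 4.0.16 under R 4.3.3 (glmQLFTest, TMM scaling, filterByExpr, robust), with 1 coefficient per time point over all 8 libraries and Benjamini-Hochberg adjustment over 21071 genes. Threshold: adjusted p at most 0.05. The study's call adds a fold change of at least 1.5. SEs derive from the fold change and F, and intervals are 95%. The biological coefficient of variation was 5.59%. Library totals are given with the results, and at this depth 3 counts, the limit that a count of 0 allows, equal 0.0309 to 0.0409 CPM. Such limits and intervals of count ratios cover counting error only. Replicates differed by more than sampling noise (chi-square per degree of freedom 5.1 to 13.8), so each counted once. The procedure was tested on simulated data.

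The genes, the lists and their tests were chosen with earlier results of these data known. Named were all 9 targets, MDM4, regulators past the threshold, the 4 largest rises and 4 largest falls past it per list and comparison, and the 3 genes most correlated with CDKN1A and with MDM2 (mean of at least 100 normalized counts). Some other p53 targets were also named by role after their values were seen. Another gene and a sequence match are not reported here. Exon lengths and overlaps came from GENCODE 44, whose coordinates equalled those of the file for 30996 of 30996 identifiers of the same version. Sequences were read from hg38. Alternatives were RLE and upper-quartile scaling, no low-count filter, DESeq2 1.42.0, restriction to genes averaging 100 or more normalized counts, the compared time points alone, protein-coding genes alone, a replicate block, and leaving out each library.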

Additional observations from a re-analysis of the deposited data

How the results depend on the processing

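Under the 8 alternatives in scaling, filter, tool, time points, gene types and block, 7 of the 9 p53 targets passed at 12 h in each. At 24 h 7 passed in each except the fit with the replicate block, which gave 6. Leaving out single libraries gave 5 to 8 genes at 12 h, 7 at 24 h in every case, and 1 to 2 between 12 h and 24 h. The other p53 targets past the threshold numbered 13 to 20 at 12 h and 2 to 4 between 12 h and 24 h when single libraries were left out.

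Deviations of same-numbered 12 h and 24 h libraries from their group means had correlations of 0.102, 0.0271 and 0.0292. Those of different numbers ran from -0.0785 to 0.053. The 0 h libraries are not in these values, so the values cannot decide whether the replicate numbers pair the libraries. The main fit used no pairing. The replicate block over the 7 numbered libraries gave 7, 6 and 1 of the 9 genes. In it SESN1 (adjusted p 0.0359) and TP53INP1 (0.0147) passed at 12 h by edgeR, BBC3 (0.263) and FDXR (0.406) did not, and FDXR did not at 24 h (0.131). Of the other named genes, FAS (0.0631), PLK2 (0.153), CHEK2 (0.0901) and EDA2R (0.213) lost the 12 h call in it, and CHEK1 (0.166), CD82 (0.29), EDA2R (0.155), CDC25C (0.12) and PLK1 (0.0644) the 24 h call. It changed no other call. This fit lacks the unnumbered 0 h library. TP53INP1 also passed at 12 h without 12 h replicate 2 (0.00903).

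Genes called at 1.5-fold numbered 222 at 12 h, 140 among genes averaging 100 or more normalized counts and 395 with the replicate block. At 24 h they numbered 516, and 322 with that mean. Between 12 h and 24 h they numbered 38, and 25 among protein-coding genes. Leaving out single libraries gave 78 to 300 genes, 265 to 567 genes and 16 to 46 genes in these comparisons, with the fewest at 12 h and 24 h without 0 h replicate 1.

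Signs turned only for values near 0 between 12 h and 24 h. MDM4 had -0.001406 among protein-coding genes. Leaving out single libraries gave ranges of -0.03414 to 0.04484 for MDM4, -0.07061 to 0.01759 for ZMAT3, -0.01315 to 0.08076 for RRM2B and -0.1115 to 0.00544 for FDXR. The cause was not tested. Over all single genes and alternatives, 859 values kept direction and side of the threshold, 67 lost the call, 4 gained it and 8 turned sign.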
